A study of Homo sapiens with 12 samples.

Results

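The genes described here encode the factors that start, extend and end protein synthesis in the cytoplasm, with a few enzymes that modify them. They were chosen by symbol: EIF followed by a digit from 1 to 6, EEF1, EEF2, and ETF1, GSPT1 and GSPT2. Of 78 matching symbols, 5 EIF2AK symbols (the eIF2 kinases and a transcript beside one of them) and 5 symbols that end in P and a digit were left out. Of the symbols ending in P and a digit, EEF1DP3 and EIF3IP1 are pseudogenes in RefSeq. EIF4EBP1, EIF4EBP2 and EIF4EBP3 are not pseudogenes; they encode proteins that hold back eIF4E and are given with its other regulators. This left 68 genes of 27827 symbols, 63 of them protein coding in RefSeq.

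RNA was sequenced from U937 cells, a human pro-monocytic line, so that all 12 libraries stem from 1 cell line. The groups were a LILRB3 antagonist antibody with its own nonspecific IgG controls, and a LILRB3 agonist antibody with a separate set of IgG controls, with 3 libraries in each of the 4 groups. Per the labels, all cells had been given interferon gamma at 50 ng/mL beforehand to raise LILRB3, an inhibitory receptor of myeloid cells. The LILRB3 antibodies were given for 72 hours at a concentration that the labels write as 5 mg/mL. Whether the libraries of a group came from separate cultures is not given, so p-values measure the spread between libraries, which may be technical. Column names carry the group only, and the library numbers used below name columns and pair nothing.

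Of the 68 genes, all stood in the antagonist table and 8 in the agonist table. Column totals were 17035334 to 17771980 counts in antagonist libraries and 17142362 to 18820312 counts in their IgG libraries. The agonist table listed only 904 genes, and its totals are not library depths. IgG library 1 of the antagonist set differed most from its group, with a chi-square per degree of freedom of 10.9 and 19.6 against the other IgG libraries, where those gave 4.499 against each other. Agonist library 1 stood apart in the same way, at 24.9 and 26.6 against 3.74. Of the U937 markers ELANE, AZU1, CTSG, LYZ, SPI1, CD33, CD68, CSF3R and MPO, all passed the filter on low counts, but MPO averaged 0.797 ± 0.197 CPM with the antagonist and 0.468 ± 0.342 CPM with IgG. CD3E, MS4A1, HBB and EPCAM, markers of T, B, erythroid and epithelial cells, did not pass it, and COL1A1, a marker of fibroblasts, averaged 1.44 ± 0.815 CPM with the antagonist and 0.974 ± 0.192 CPM with IgG. With the antagonist, CTSG and LYZ fell and CSF3R rose among the 9 U937 markers; their part in the results below was not tested.

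As background, a message is recruited to the ribosome by the eIF4 proteins, which bind its cap and unwind it, while eIF2 brings the initiator tRNA and eIF3 holds the small subunit together with both. Elongation factor eEF1A then delivers charged tRNAs, the eEF1B subunits recharge eEF1A with GTP, eEF2 moves the ribosome along, and the release factors eRF1 and eRF3 end the chain. Many of these messages, like those of ribosomal proteins, begin with a C followed by a run of pyrimidines, the TOP motif, and their translation is controlled by the kinase mTORC1 through LARP1. In human macrophages, interferon gamma is known to lower signalling by mTORC1 and the MNK kinases to the cap-binding step.

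The run of pyrimidines was looked for at the annotated starts of these genes, because it is the sequence feature for which the family is best known. Start sequences were taken from RefSeq (GRCh38.p14), where 55 of the 68 genes matched. Each line gives 30 bases before and 20 bases from the start, 5′ to 3′, and capitals mark the run, which begins at the start itself. The run searched was a C at the start followed by at least 4 bases that are each C or T, read on the strand of the gene only. The 8 runs below are those of the most lowered genes, followed by EEF2 and EIF2D, which did not pass the test. Their positions are chr2:206159865-206159914, plus strand for EEF1B2; chr11:32583801-32583850, plus strand for EIF3M; chr6:73521013-73521062, minus strand for EEF1A1; chr19:38619158-38619207, plus strand for EIF3K; chr3:150546757-150546806, plus strand for EIF2A; chr11:7987307-7987356, plus strand for EIF3F; chr19:3985444-3985493, minus strand for EEF2; and chr1:206612446-206612495, minus strand for EIF2D.
EEF1B2: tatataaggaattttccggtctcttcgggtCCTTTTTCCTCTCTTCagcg
EIF3M: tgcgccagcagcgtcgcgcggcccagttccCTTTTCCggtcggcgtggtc
EEF1A1: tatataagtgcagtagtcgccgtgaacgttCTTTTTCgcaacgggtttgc
EIF3K: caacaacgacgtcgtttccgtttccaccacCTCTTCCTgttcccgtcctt
EIF2A: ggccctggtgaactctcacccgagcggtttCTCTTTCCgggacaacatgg
EIF3F: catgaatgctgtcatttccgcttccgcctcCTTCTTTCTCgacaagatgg
EEF2: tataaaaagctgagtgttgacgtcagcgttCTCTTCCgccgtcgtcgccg
EIF2D: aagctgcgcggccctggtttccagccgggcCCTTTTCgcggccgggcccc

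For contrast, 3 starts without such a run are shown: those of EIF1AX (chrX:20141819-20141868, minus strand) and EIF5B (chr2:99337359-99337408, plus strand), the most lowered genes with no run at an annotated start, and that of EEF2K (chr16:22206248-22206297, plus strand), the 1 gene that rose.
EIF1AX: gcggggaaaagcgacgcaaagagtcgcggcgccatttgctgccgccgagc
EIF5B: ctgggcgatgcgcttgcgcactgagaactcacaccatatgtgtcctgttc
EEF2K: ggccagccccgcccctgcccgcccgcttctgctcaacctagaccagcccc

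A run was present at 1 or more annotated starts of 12 of the 55 genes (21.8%), against 5.14% of 27305 symbols with a start in RefSeq and 7.48% of 10555 tested genes with one. EIF4A2, EIF4B, EIF3D and EIF2S3 were the other 4. A match describes these letters only, and a start without one says only that the run is not at that position.

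With the antagonist, translation factor messages were lower than with IgG for most of the family. Of 62 genes that passed the filter on low counts, 37 fell and 1 rose (edgeR quasi-likelihood test, Benjamini-Hochberg adjusted p below 0.05), where 20.5% of all 13778 tested genes fell and 15.6% rose. The changes were small: the 37 genes that fell had a median log2 fold change of -0.34, from -0.55 for EEF1B2 to -0.18 for GSPT1. The median of all 62 genes was -0.26, beside -0.01 for all genes tested, and 55 of the 62 estimates were below zero. In 41 of the 62 genes every antagonist library lay below every IgG library, and in 3 every one lay above, where 27.1% of all genes were separated downward and 21.9% upward. Fewer cells with a message and less of it per cell cannot be told apart in such bulk RNA.

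Read counts of these genes are high, and high counts give more calls. Among the 4526 genes that averaged at least 50 CPM, the counts of a gene scaled to a common library size, 34.6% fell and 19.3% rose; among the 46 translation factor genes at that level, 34 fell and 0 rose. Their medians were -0.29 for the translation factor genes and -0.07 for all genes at that level. Without IgG library 1, the highest of the IgG libraries for 39 of the 62 genes (5591 of 13778 for all genes), 37 fell and 2 rose, where 2520 of all 13990 genes tested fell and 2441 rose; EIF1B and EIF4A2 lost their calls as lower and EEF2 and EIF5AL1 gained one. Scaled by library totals in place of TMM, which moved the median of all genes upward by 0.08, 29 fell and 4 rose, with a median of -0.18 for the 62 genes, while of all genes 11.6% fell and 21.9% rose. The plot of fold changes by role shows each of the 62 genes.

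**Figure D1:**
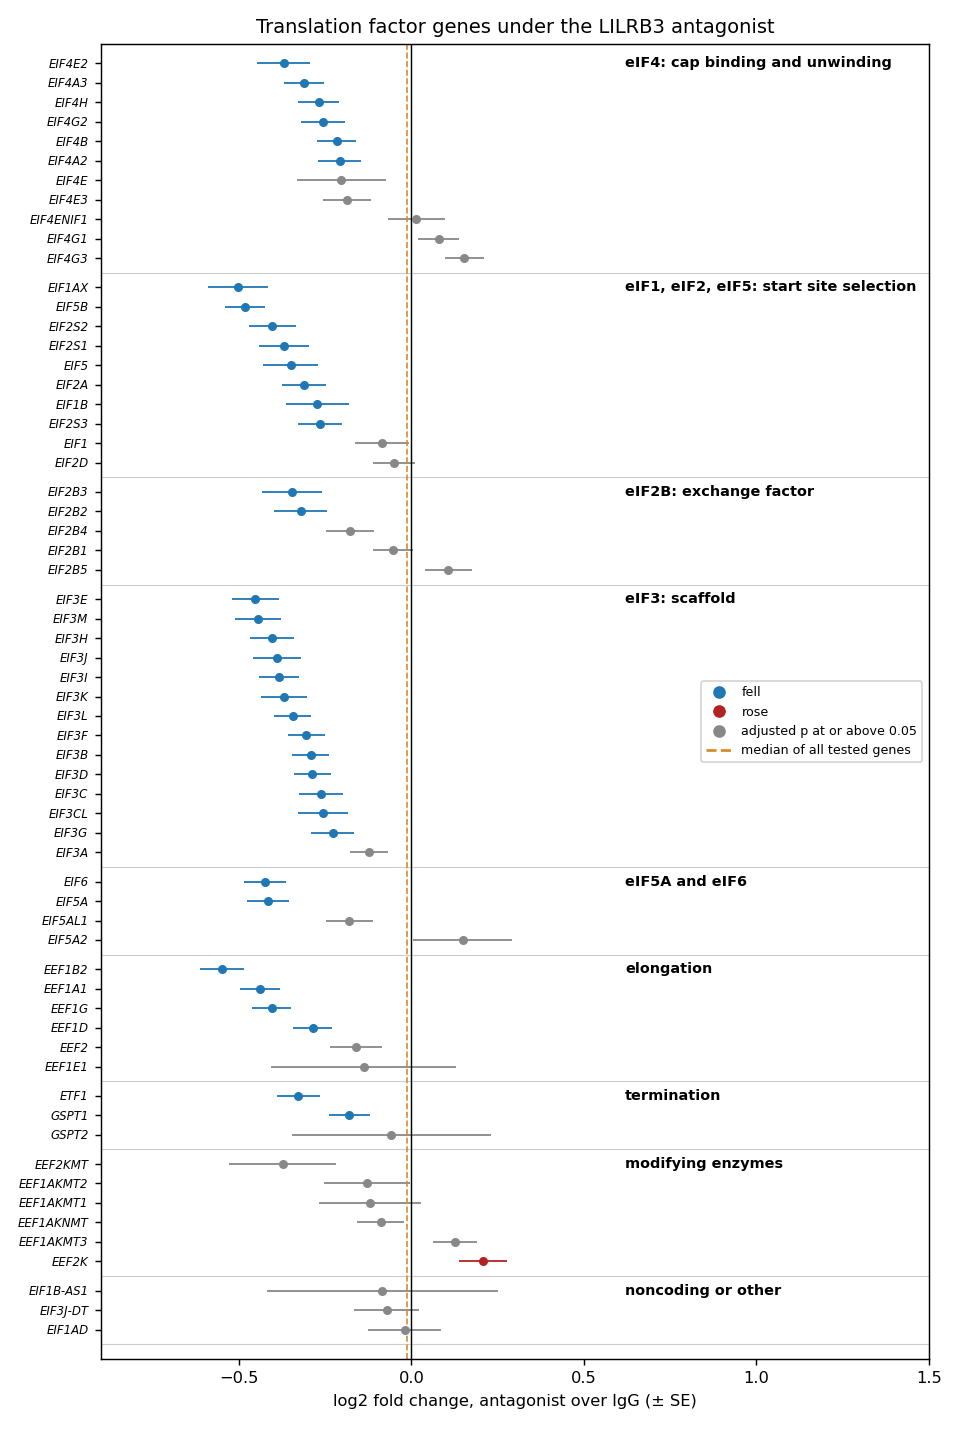
Log2 fold change (x axis, antagonist over IgG, bars ± SE) of each of the 62 tested genes, grouped by role from eIF4 at the top to noncoding genes at the bottom; blue genes fell, the red gene rose and grey genes did not pass the test. The 13 eIF3 genes that fell lie between -0.45 and -0.23, to the left of the dashed median of all tested genes at -0.01.

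Among the eIF4 proteins, which bind the cap and unwind the message, 6 of 11 tested genes fell and 0 rose, with a median of -0.21. EIF4E2, which encodes a cap-binding relative of eIF4E known for repressing messages, fell most. It was at 40.3, 48.7 and 44.4 CPM in antagonist libraries, against 57.2, 60.4 and 54.9 CPM in IgG libraries (log2 fold change -0.37, SE 0.078, adjusted p = 0.00323). All antagonist libraries were below all IgG libraries. EIF4B, which helps the helicase eIF4A and had the most reads of the group, was at 415, 439.7 and 424 CPM in antagonist libraries, against 512, 492 and 480.5 CPM in IgG libraries (log2 fold change -0.22, SE 0.057, adjusted p = 0.0108), and its libraries did not overlap either. EIF4H, a related helper of eIF4A (-0.27), EIF4A3, a helicase of the exon junction complex (-0.31), EIF4G2, a scaffold without the eIF4E site (-0.26), and EIF4A2, one of the eIF4A helicases (-0.21), also fell on the log2 scale.

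The cap-binding protein and its main scaffold were not among the genes that fell. EIF4E, the cap-binding protein itself, was at 12.3, 14.6 and 11.7 CPM in antagonist libraries, against 17.3, 13.8 and 13.2 CPM in IgG libraries (log2 fold change -0.20, SE 0.13, adjusted p = 0.235). These libraries overlapped, and its counts were low. EIF4G1, the scaffold that joins eIF4E to eIF4A, was at 309, 312 and 316 CPM in antagonist libraries, against 277, 306 and 303 CPM in IgG libraries (log2 fold change 0.08, SE 0.059, adjusted p = 0.319), slightly higher in every antagonist library. EIF4G3, a second such scaffold, had a log2 fold change of 0.15 (adjusted p = 0.0534), also without overlap; without IgG library 1 its adjusted p was 0.00362 at a log2 fold change of 0.21. With library totals both scaffolds passed the test as higher, at 0.16 for EIF4G1 and 0.23 for EIF4G3, whereas with trends in transcript length and GC content removed EIF4G1 was lower, at -0.15 (adjusted p = 0.00349). EIF4E3, another eIF4E relative (-0.19, adjusted p = 0.0533), and EIF4ENIF1, which carries eIF4E into the nucleus (0.01, adjusted p = 0.91), were not called. The calls of EIF4A2, EIF4B and EIF4G2 depended on single libraries. EIF4A2 had adjusted p-values of 0.0526 to 0.0969 without antagonist library 1 or 3 or IgG library 1 or 2, EIF4B of 0.057 to 0.0691 without antagonist library 1 or 3 or IgG library 2, and EIF4G2 of 0.0566 without antagonist library 3.

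EIF4A1, which encodes the most used eIF4A helicase, had 0 counts in all 6 libraries, a count that allows up to 3 per library. Its gene (chromosome 17, 7572825 to 7579006, GRCh38) lies within that of SENP3-EIF4A1, a readthrough transcript annotated in GENCODE 29, which had 2, 2 and 3 counts in antagonist libraries and 7, 2 and 2 counts in IgG libraries. Every 50-base window of the EIF4A1 transcript also occurs in a transcript of another annotated gene. How reads of overlapping or repeated sequence were counted is not given in the sources used here, and the zero was not taken as absence of the message. EIF4E1B, a germline relative of eIF4E, had 1 count in all and was not tested.

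Most messages for start site selection and subunit joining were lower. Of 10 tested genes of eIF1, eIF2 and eIF5, 8 fell and 0 rose, where 20.5% of all genes fell and 15.6% rose. All 10 estimates were below zero (median -0.33, range -0.50 to -0.05). With trends in length and GC content removed, EIF1 (0.04) and EIF1B (0.02) were above zero and EIF2A lost its call (-0.10). EIF1AX, whose product opens the small subunit for scanning, was at 40.6, 46.4 and 38.9 CPM in antagonist libraries, against 66.1, 56.2 and 56.1 CPM in IgG libraries (log2 fold change -0.50, SE 0.087, adjusted p = 0.00114), the largest fall of the group. EIF5B (chromosome 2, 99337389 to 99401326, GRCh38), the GTPase that joins the subunits, was at 173, 180.1 and 174 CPM in antagonist libraries, against 236, 243 and 257 CPM in IgG libraries (log2 fold change -0.48, SE 0.058, adjusted p = 0.000212). In both genes the highest antagonist library was below the lowest IgG library.

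All 3 subunits of eIF2, the carrier of the initiator tRNA, fell. EIF2S3, the gamma subunit that binds GTP with the most reads of the group, was at 414, 431 and 395 CPM in antagonist libraries, against 534, 485 and 471 CPM in IgG libraries (log2 fold change -0.26, SE 0.065, adjusted p = 0.00741). The alpha subunit gene EIF2S1, whose product the eIF2 kinases phosphorylate, averaged 63.8 ± 4.004 CPM with the antagonist and 82.4 ± 6.14 CPM with IgG (SD, n = 3 each; log2 fold change -0.37, SE 0.072, adjusted p = 0.00227), and the beta subunit gene EIF2S2 averaged 88.96 ± 4.91 CPM with the antagonist and 118 ± 8.59 CPM with IgG (log2 fold change -0.40, SE 0.069, adjusted p = 0.00105). No antagonist library of the 3 genes reached an IgG library. EIF5, the GTPase-activating protein of eIF2 (-0.35), EIF2A, an alternative carrier of initiator tRNA (-0.31), and EIF1B, a close relative of eIF1 (-0.27), fell too.

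EIF1, the start codon gatekeeper, was at 242, 271 and 257 CPM in antagonist libraries, against 308, 257 and 252 CPM in IgG libraries (log2 fold change -0.09, SE 0.079, adjusted p = 0.42). IgG library 1 alone stood above the rest, and without it the log2 fold change was 0.04. EIF2D, which handles tRNA on recycled subunits, averaged 80.3 ± 4.06 CPM with the antagonist and 83.2 ± 0.3402 CPM with IgG (-0.05, adjusted p = 0.541), with overlap. The call of EIF1B held only without IgG library 3: without any other single library its adjusted p was 0.0866 to 0.159, at log2 fold changes of -0.29 to -0.16. EIF2S3 missed the threshold without antagonist library 3 (log2 fold change -0.23, adjusted p = 0.0561).

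The eIF2B genes, which encode the exchange factor that recharges eIF2 and is blocked when eIF2 is phosphorylated, were mixed: 2 of 5 fell and 0 rose (median -0.18). EIF2B3, the gamma subunit of the catalytic part, was at 20.8, 22.8 and 18.95 CPM in antagonist libraries, against 27.4, 25.5 and 26.5 CPM in IgG libraries (log2 fold change -0.35, SE 0.088, adjusted p = 0.00906), and EIF2B2, the beta subunit of the regulatory part, averaged 33.2 ± 2.54 CPM with the antagonist and 41.5 ± 1.597 CPM with IgG (log2 fold change -0.32, SE 0.076, adjusted p = 0.00649). The libraries of both genes were separated. EIF2B5, the catalytic epsilon subunit, was at 75.8, 86.2 and 81.4 CPM in antagonist libraries, against 77.4, 70.9 and 77.6 CPM in IgG libraries (log2 fold change 0.11, SE 0.068, adjusted p = 0.237), with overlap. EIF2B1 (-0.05, adjusted p = 0.51) and EIF2B4 (-0.18, adjusted p = 0.0596), the alpha and delta regulatory subunits, were not called although their libraries did not overlap. Without antagonist library 3, EIF2B3 had a log2 fold change of -0.28 with an adjusted p of 0.0543.

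The eIF3 complex, the large scaffold on the small subunit, was the most uniform group. Of 14 tested genes 13 fell and 0 rose, and in all 14 every antagonist library was below every IgG library (median log2 fold change -0.32, range -0.45 to -0.12). EIF3E, the e subunit, fell most and had the most reads of the group, at 386, 421 and 388 CPM in antagonist libraries, against 593, 510.2 and 533 CPM in IgG libraries (log2 fold change -0.45, SE 0.068, adjusted p = 0.000565). With trends in length and GC content removed, its log2 fold change was -0.18 and no longer the lowest of the group, that of EIF3B being -0.37; all 14 genes fell under that alternative. EIF3M, another subunit of the octamer core, was at 123, 129 and 119 CPM in antagonist libraries, against 182, 167 and 156 CPM in IgG libraries (log2 fold change -0.44, SE 0.067, adjusted p = 0.000552). The plot of levels by library shows the gap between the groups for each subunit.

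The octamer core of eIF3, formed by the subunits a, c, e, f, h, k, l and m and counted here with the copy EIF3CL, had 8 of 9 genes that fell, with a median of -0.34. EIF3H (-0.40), EIF3K (-0.37), EIF3L (-0.34) and EIF3F (-0.30) lay between EIF3M and the pair EIF3C (-0.26) and EIF3CL (-0.26). EIF3A, the largest subunit and the backbone of the core, was the exception, at 423, 431 and 428 CPM in antagonist libraries, against 477, 472 and 447 CPM in IgG libraries (log2 fold change -0.12, SE 0.055, adjusted p = 0.101). Its groups did not overlap, but their distance was small. Of the peripheral subunits b, g and i, all 3 fell: EIF3I (-0.38), EIF3B (-0.29) and EIF3G (-0.23). EIF3D, a subunit that can itself bind caps (-0.29), and EIF3J, a loosely held subunit (-0.39), fell as well.

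EIF3C and EIF3CL are near-identical copies on chromosome 16, and 96.8% of the 50-base windows of the EIF3C transcript occur in EIF3CL. Their counts are therefore uncertain as to which copy they come from. Both genes enter the counts of fallen genes above, although they are not independent of each other. EIF3CL averaged 225 ± 5.01 CPM with the antagonist and 268 ± 26.3 CPM with IgG (log2 fold change -0.26, SE 0.072, adjusted p = 0.0149), and its adjusted p was 0.0505 to 0.0793 without any 1 of the 3 antagonist libraries or IgG library 2. EIF3G had adjusted p-values of 0.0538 to 0.0691 without antagonist library 1 or 2 or IgG library 2. Of the windows of EIF3L, 42.0% occur in transcripts of other annotated genes, pseudogenes among them.

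**Figure D2:**
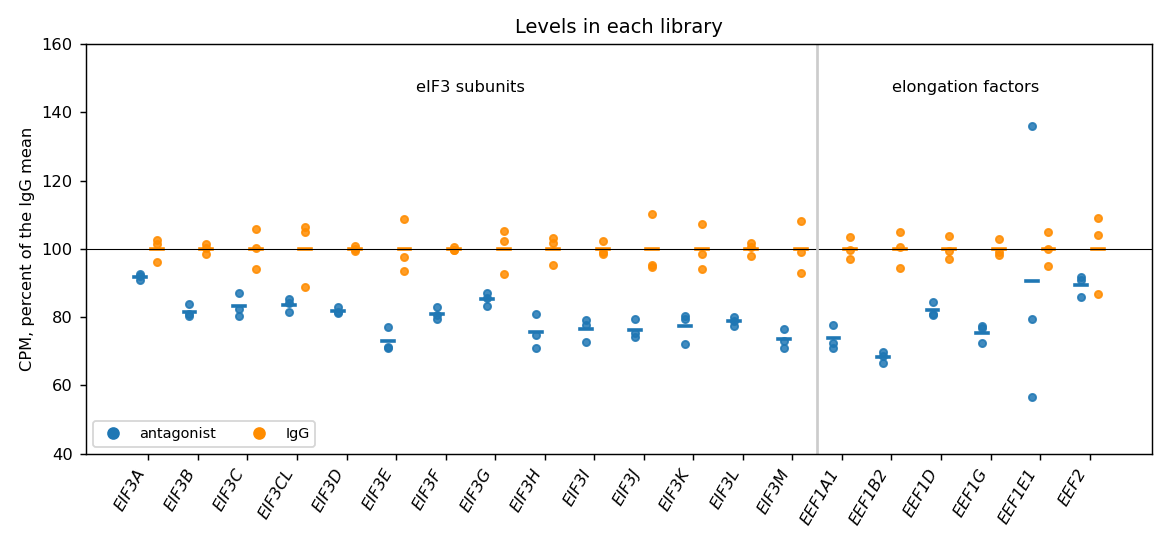
CPM in each library as a percentage of the gene's IgG mean (y axis, which starts at 40) for the 14 eIF3 genes and 6 elongation factor genes; blue points are antagonist libraries, orange points are IgG libraries and short bars are group means. The blue points lie below the orange ones in every eIF3 gene and in EEF1A1, EEF1B2, EEF1D and EEF1G, while those of EEF1E1 and EEF2 overlap.

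eIF5A, a factor that rescues stalled ribosomes and carries the amino acid hypusine, and eIF6, which keeps the ribosomal subunits apart, both fell. EIF6 was at 135, 127 and 131 CPM in antagonist libraries, against 185, 179 and 165 CPM in IgG libraries (log2 fold change -0.42, SE 0.061, adjusted p = 0.000458). EIF5A was at 149.5, 148 and 150.0 CPM in antagonist libraries, against 212, 195 and 189 CPM in IgG libraries (log2 fold change -0.42, SE 0.060, adjusted p = 0.000466). Neither gene had overlapping libraries. EIF5AL1, an intronless copy of EIF5A, was at 117, 125 and 132 CPM in antagonist libraries, against 131, 142 and 150.3 CPM in IgG libraries (log2 fold change -0.18, SE 0.069, adjusted p = 0.0575), with overlap, and without IgG library 1 its adjusted p was 0.00616 (log2 fold change -0.20). It shares 30.1% of the 50-base windows of EIF5A, so that counts may pass between them. EIF5A2, the second eIF5A gene, was at 7.08, 6.62 and 5.51 CPM in antagonist libraries, against 5.75, 5.57 and 5.999 CPM in IgG libraries (log2 fold change 0.15, SE 0.14, adjusted p = 0.442); it was low in counts and its groups overlapped.

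Among elongation factors, eEF1A and its exchange complex fell while eEF2 did not pass the test; 4 of 6 tested genes fell, 0 rose, and the median was -0.35. EEF1A1 (chromosome 6, 73515750 to 73521032, GRCh38), the carrier of charged tRNAs, was at 2571, 2753 and 2519 CPM in antagonist libraries, against 3664, 3437 and 3532 CPM in IgG libraries (log2 fold change -0.44, SE 0.057, adjusted p = 0.000293). Every antagonist library lay below every IgG library. EEF1B2, the catalytic alpha subunit of the exchange complex and the largest fall of all 62 genes, was at 58.4, 60.3 and 61.5 CPM in antagonist libraries, against 92.3, 88.4 and 82.9 CPM in IgG libraries (log2 fold change -0.55, SE 0.063, adjusted p = 0.000183). EEF1G, its gamma subunit, was at 972, 966 and 909 CPM in antagonist libraries, against 1295, 1244 and 1233 CPM in IgG libraries (log2 fold change -0.41, SE 0.056, adjusted p = 0.000378), and EEF1D, its delta subunit, averaged 233 ± 5.898 CPM with the antagonist and 284 ± 9.68 CPM with IgG (log2 fold change -0.29, SE 0.057, adjusted p = 0.0024). All 4 genes had separated libraries.

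EEF2, the translocase, had the most reads of the group, at 9879.7, 9245 and 9790.2 CPM in antagonist libraries, against 9367, 11220.4 and 11746 CPM in IgG libraries (log2 fold change -0.16, SE 0.076, adjusted p = 0.114). IgG library 1 lay among the antagonist libraries and the other IgG libraries lay above them. Without IgG library 1 the log2 fold change was -0.23 with an adjusted p of 0.000222. With all 6 libraries EEF2 also passed the test with no filter on low counts (-0.17, adjusted p = 0.0122) and with trends in length and GC content removed (-0.29, adjusted p = 1.06e-07), and it missed the threshold under the other scalings and without any other single library. EEF1E1, a scaffold protein of the tRNA synthetase complex, averaged 2.83 ± 1.27 CPM with the antagonist and 3.12 ± 0.158 CPM with IgG (-0.14, adjusted p = 0.719), and its antagonist libraries spread on both sides of the IgG libraries. EEF1A2, the eEF1A form of nerve and muscle, had 1, 7 and 7 counts in antagonist libraries and 2 in each IgG library and was not tested. Parts of these transcripts recur in other annotated genes, for 98.7% of the 50-base windows of EEF1G, 45.0% of EEF1B2, 29.3% of EEF1A1 and 0% of EEF2, and the assignment of such reads was not given.

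Of 3 tested termination factor genes 2 fell and 0 rose, where 20.5% of all genes fell and 15.6% rose. So few genes do not set the group apart from those shares. ETF1, which encodes eRF1, the protein that reads the stop codon, was at 80.4, 83.4 and 77.7 CPM in antagonist libraries, against 107, 101 and 95.5 CPM in IgG libraries (log2 fold change -0.33, SE 0.063, adjusted p = 0.00197). GSPT1, which encodes the GTPase eRF3 and had the most reads of the group, was at 148, 149 and 152 CPM in antagonist libraries, against 168, 161 and 179 CPM in IgG libraries (log2 fold change -0.18, SE 0.058, adjusted p = 0.03). Both were separated, GSPT1 by a small distance. GSPT1 missed the threshold without any single library other than IgG library 1, with adjusted p-values of 0.0502 to 0.121. Its call was also lost with library totals (log2 fold change -0.10) and with trends in length and GC content removed (0.03). GSPT2, the intronless second eRF3 gene, averaged 1.26 ± 0.286 CPM with the antagonist and 1.32 ± 0.265 CPM with IgG (-0.06, adjusted p = 0.895), with overlap and few counts.

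Of 6 tested genes for enzymes that modify elongation factors, 0 fell and 1 rose, beside 20.5% and 15.6% of all genes; 4 of the 6 estimates were below zero (median -0.10), and no test of this group against the rest was run. EEF2K encodes the kinase that inhibits eEF2 and was at 49.4, 49.7 and 51.1 CPM in antagonist libraries, against 40.3, 46.1 and 43.9 CPM in IgG libraries (log2 fold change 0.21, SE 0.069, adjusted p = 0.0346). All antagonist libraries were above all IgG libraries, but without any 1 of the 3 antagonist libraries the adjusted p was 0.0734 to 0.125, and with trends in length and GC content removed the log2 fold change was 0.04. EEF1AKMT3, a lysine methyltransferase of eEF1A with the most reads of the group, was at 86.96, 77.8 and 83.7 CPM in antagonist libraries, against 73.5, 78.3 and 75.8 CPM in IgG libraries (log2 fold change 0.13, SE 0.063, adjusted p = 0.136), with overlap. EEF2KMT, which methylates eEF2, averaged 4.38 ± 0.618 CPM with the antagonist and 5.69 ± 0.363 CPM with IgG (-0.37, adjusted p = 0.0765) without overlap. The eEF1A methyltransferases EEF1AKMT1 (-0.12), EEF1AKMT2 (-0.13) and EEF1AKNMT (-0.09) overlapped, and EEF1AKMT1 was higher, at 0.04, without IgG library 1.

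Of the remaining symbols 0 of 3 tested genes were called. EIF3J-DT, a noncoding transcript divergent from EIF3J, was at 16.1, 17.4 and 16.6 CPM in antagonist libraries, against 19.04, 16.2 and 17.4 CPM in IgG libraries (log2 fold change -0.07, SE 0.094, adjusted p = 0.585). EIF1B-AS1, a noncoding transcript on the strand opposite to EIF1B, and EIF1AD, a nuclear protein with an eIF1A-like domain, had log2 fold changes of -0.09 and -0.02. The libraries of all 3 overlapped. EIF1AX-AS1, EEF1E1-BLOC1S5 and EIF1AY did not pass the filter. In RefSeq, EIF1B-AS1 starts at 40309698 on the minus strand of chromosome 3 and EIF1B starts at 40309707 on the plus strand.

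Summed over the family, translation factor genes took a smaller share of all counts with the antagonist. The share was 2.21%, 2.20% and 2.19% in antagonist libraries, against 2.41%, 2.49% and 2.50% in IgG libraries, or 2.20% ± 0.00921 and 2.47% ± 0.0507 (SD, n = 3 each). The groups did not overlap (exact permutation test, two-sided, p = 0.1, the smallest that 3 against 3 libraries allow). The 14 eIF3 genes took 0.350% ± 0.00653 with the antagonist and 0.411% ± 0.00901 with IgG, and EEF1A1 alone 0.269% ± 0.0142 and 0.344% ± 0.0152; both were separated. EEF2 took 0.990% ± 0.0310 with the antagonist and 1.05% ± 0.105 with IgG, and its libraries overlapped (exact p = 0.4).

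**Figure D3:**
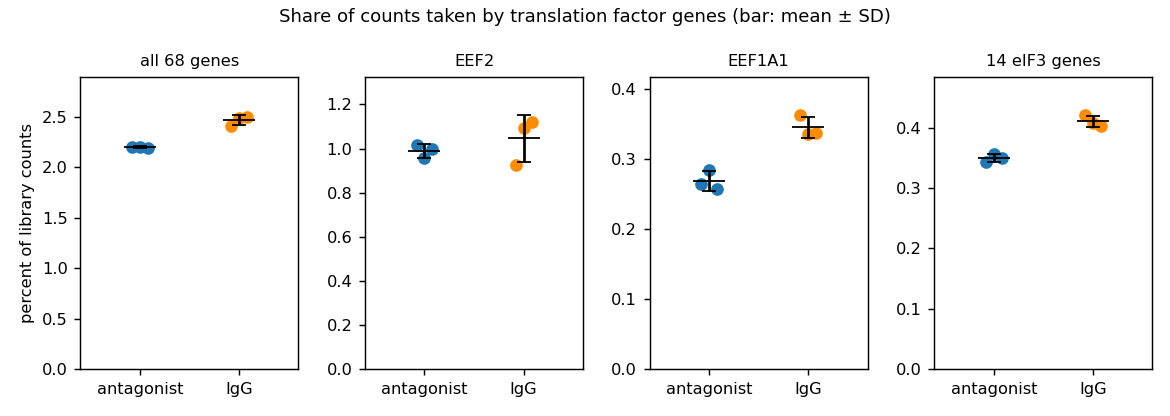
Share of all counts on rows with a symbol (y axis, percent) taken by all 68 genes, by EEF2, by EEF1A1 and by the 14 eIF3 genes, each panel with its own scale from 0; points are libraries, the long bar is the mean and the whiskers are ± SD (n = 3). The antagonist libraries lie below the IgG libraries in each panel except that of EEF2, where IgG library 1 is the lowest of the 6.

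Other large classes of message moved along with this share. Mitochondrially encoded genes took 3.65% ± 0.178 of counts with the antagonist and 4.63% ± 0.131 with IgG, and ribosomal protein genes 5.42% ± 0.130 and 6.95% ± 0.607. With both classes left out of the total, translation factor genes took 2.42% ± 0.0132 with the antagonist and 2.79% ± 0.0356 with IgG, a difference of -0.370 percentage points where it had been -0.267. Without EEF1A1 the difference was -0.191 percentage points. Each of these shares was separated between the groups.

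Genes with a pyrimidine run at the start were mostly among those that fell, as were well counted translation factor genes in general. Of the 12 such genes 10 fell (median of the 12, -0.30), all but EEF2 and EIF2D. All 12 averaged at least 50 CPM, and of the 46 translation factor genes at that level 34 fell. The genes without a run that follow include some of few counts, such as GSPT2 and EEF1E1. The comparison is thus not matched for counts, and a link between run and fall was not tested. Of 38 tested genes with a RefSeq start and no run, 20 fell and 1 rose (median -0.23), EIF1AX and EIF5B being the lowest among them. Over all tested genes with a run, 265 of 789 fell (33.6%) and 95 rose, and without ribosomal protein genes and translation factors 212 of 730 fell (29.04%) and 95 rose. Of the 9 genes listed as background for known TOP messages (EEF1A1, EEF1B2, EEF1D, EEF1G, EEF2, EIF3E, EIF3F, EIF3H and EIF4B), 8 fell, with a median of -0.40. This list overlaps the 12 genes above, which include EEF1A1, EEF1B2, EEF2, EIF3F and EIF4B. EEF1G had no run at its annotated start, and EEF1D, EIF3E and EIF3H had no matched start.

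Fold change varied with transcript length and GC content over all genes. Spearman's rho between fold change and length was 0.177 over 61 translation factor genes and 0.232 over 13360 genes; with GC content it was 0.0934 and 0.278. The genes share the same 6 libraries, so these values are descriptions. With each library's trends in length and GC content removed, an alternative chosen after the data were seen, 36 of the 61 genes with a length fell and 2 rose, with a median of -0.18. Of the 37 genes that fell in the reported fit, 16 came more than 1.5 times closer to zero or crossed it, among them EEF1B2 (-0.31), EIF1AX (-0.32), EIF3E (-0.18), EIF3K (-0.16) and EIF3J (-0.18), and EEF1D lay farther from zero (-0.43). Of the 37, 5 lost their call: EIF2A (-0.10), EIF2B3 (-0.17), EIF1B, EIF4A2 and GSPT1. Under it EEF2 passed the test, at -0.29, and the estimates of EIF1B, EIF4A2 and GSPT1 were above zero, at 0.02, 0.02 and 0.03.

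Ratios of related genes within a library, which do not depend on library size, were compared for 5 pairs. The counts of EIF4G2 over those of EIF4G1 gave 0.694, 0.722 and 0.657 in antagonist libraries, against 1.00, 0.806 and 0.822 in IgG libraries. All antagonist ratios were lower (difference in mean log2 ratio -0.34, exact permutation test, two-sided, p = 0.1, adjusted p = 0.25 over 5 pairs). With trends in length and GC content removed, the log2 fold changes of EIF4G2 and EIF4G1 were -0.18 and -0.15, a difference of -0.03, and that between EIF4G3 and EIF4G1 was 0.28. The counts of EIF5A2 over those of EIF5A were higher in every antagonist library (difference 0.56, exact p = 0.1, adjusted p = 0.25). The ratios of EIF4G3 to EIF4G1 (0.07), EIF4E2 to EIF4E (-0.18) and GSPT2 to GSPT1 (0.11) overlapped between groups. A ratio of counts shows unequal change of a pair and not their relative levels, since counts also depend on transcript length. The pairs EIF4A2 with EIF4A1 and EEF1A2 with EEF1A1 were not computed because 1 gene of each did not pass the filter.

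Genes that control or accompany these factors moved in both directions. Over 7 lists with 72 tested genes, 22 fell and 8 rose, and the median was -0.11 (log2). The lists below are read against the 20.5% of all tested genes that fell and the 15.6% that rose; no list was tested against them. In the list of eIF2 kinases and the stress response that eIF2 phosphorylation sets off, 2 of 14 fell and 1 rose. Counts this small do not set the list apart from those shares. EIF2AK1, the heme-regulated kinase, averaged 198 ± 7.998 CPM with the antagonist and 226 ± 8.65 CPM with IgG (log2 fold change -0.19, SE 0.059, adjusted p = 0.0237), and ATF4, the transcription factor of this response, averaged 325 ± 6.45 CPM with the antagonist and 365 ± 1.34 CPM with IgG (log2 fold change -0.16, SE 0.054, adjusted p = 0.0306). PPP1R15B, which directs dephosphorylation of eIF2, averaged 115 ± 6.78 CPM with the antagonist and 99.8 ± 2.01 CPM with IgG (log2 fold change 0.20, SE 0.061, adjusted p = 0.0215). The 3 genes had separated libraries and small changes. EIF2AK1 had adjusted p-values of 0.0528 to 0.112 without antagonist library 1 or 3 or IgG library 2 or 3, and PPP1R15B of 0.0833 to 0.105 without antagonist library 1 or 2. With 1 library left out ATF4 passed only without IgG library 1, with adjusted p-values of 0.0628 to 0.133 without any other library, and it lost its call with DESeq2 size factors (adjusted p = 0.0516), the DESeq2 test (adjusted p = 0.0695) and library totals (-0.08, adjusted p = 0.256). EIF2AK1 also lost its call with the DESeq2 test (adjusted p = 0.0531) and library totals (adjusted p = 0.182). The targets DDIT3 (-0.20, adjusted p = 0.0542), ASNS (0.07, adjusted p = 0.571) and TRIB3 (-0.19, adjusted p = 0.0504) were not called.

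In the list of mTORC1 and cap-binding control, 3 of 17 fell and 2 rose, near the shares of all genes (20.5% and 15.6%), and the median was 0.05. RHEB, the GTPase that switches mTORC1 on, was at 46.7, 48.1 and 47.5 CPM in antagonist libraries, against 72.2, 60.02 and 52.95 CPM in IgG libraries (log2 fold change -0.38, SE 0.096, adjusted p = 0.009). Without IgG library 1 its log2 fold change was -0.23, and with trends in length and GC content removed -0.25. TSC1, part of the complex that switches RHEB off, was at 43.7, 44.8 and 42.8 CPM in antagonist libraries, against 30.8, 32.3 and 34.8 CPM in IgG libraries (log2 fold change 0.42, SE 0.072, adjusted p = 0.000985), and at a log2 fold change of 0.26 with the trends removed. EIF4EBP3, an inhibitor of eIF4E, averaged 4.24 ± 0.498 CPM with the antagonist and 6.35 ± 0.312 CPM with IgG (log2 fold change -0.58, SE 0.15, adjusted p = 0.00904). The 3 genes were separated between groups. EIF4EBP1, the best known of these inhibitors, fell as well (-0.35, adjusted p = 0.000854), and LARP1, the repressor of TOP messages, rose (0.26, adjusted p = 0.00653) but lost its call with the trends removed (0.09, adjusted p = 0.0643). MTOR itself had a log2 fold change of 0.06, adjusted p = 0.438.

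Among genes of poly(A) binding and helicases, 4 of 8 tested genes fell and 0 rose. PAIP2, which displaces the poly(A)-binding protein, averaged 70.9 ± 2.397 CPM with the antagonist and 94.7 ± 6.16 CPM with IgG (log2 fold change -0.42, SE 0.065, adjusted p = 0.000678). PAIP1, which ties that protein to eIF3 (-0.39), and DENR, which helps reinitiation (-0.27), fell too. DENR had adjusted p-values of 0.0502 to 0.0995 without antagonist library 1 or 3 or IgG library 1 or 2, and it lost its call with library totals (adjusted p = 0.103) and with trends in length and GC content removed (-0.08, adjusted p = 0.238). With the trends removed PAIP2 was at -0.20 and PAIP1 at -0.16. PABPC1, the poly(A)-binding protein, was at 2182, 2382 and 2232 CPM in antagonist libraries, against 2279, 2108 and 2348 CPM in IgG libraries (log2 fold change 0.01, SE 0.061, adjusted p = 0.89), with overlap. Of 12 genes of ribosome recycling and quality control, 5 fell and 1 rose; ABCE1, the recycling ATPase (-0.31), HBS1L (-0.30) and PELO (-0.29), which together rescue stalled ribosomes, fell most, and GCN1, a sensor of collided ribosomes, rose (0.20, adjusted p = 0.0233). GCN1 lost its call without antagonist library 1 or 3 (adjusted p = 0.0865 and 0.112), and with trends in length and GC content removed it was lower, at -0.11 (adjusted p = 0.0394). PELO had adjusted p-values of 0.0532 to 0.0765 without antagonist library 1 or 3 or IgG library 1, and of 0.0854 with library totals; ABCE1 was at -0.16 with the trends removed.

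Of 8 genes that make hypusine on eIF5A or diphthamide on eEF2, 3 fell and 2 rose. DPH7, which acts late in diphthamide synthesis, was at 35.5, 42.5 and 37.7 CPM in antagonist libraries, against 23.6, 25.2 and 27.0 CPM in IgG libraries (log2 fold change 0.61, SE 0.087, adjusted p = 0.000441), the largest rise among the genes of these lists. DPH1 rose as well (0.29, adjusted p = 0.0231), with an adjusted p of 0.0977 and 0.0714 without antagonist library 1 and 3. DPH3, which feeds electrons to the first step, fell (-0.41, adjusted p = 0.00316). Of 4 genes of selenocysteine delivery 1 fell and 1 rose; SECISBP2, which binds the recoding element, rose (0.29, adjusted p = 0.0145), with an adjusted p of 0.0687 without antagonist library 3. Of 9 mitochondrial translation factors 4 fell and 1 rose: MTIF2, the initiation factor (-0.33), and TSFM, an elongation factor (-0.32), fell, and MRRF, the recycling factor, rose (0.35). TSFM lost its call with library totals (-0.23, adjusted p = 0.0548) and with trends in length and GC content removed (-0.17, adjusted p = 0.0913), where MTIF2 was at -0.16, MRRF at 0.24 and DPH3 at -0.24.

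**Figure D4:**
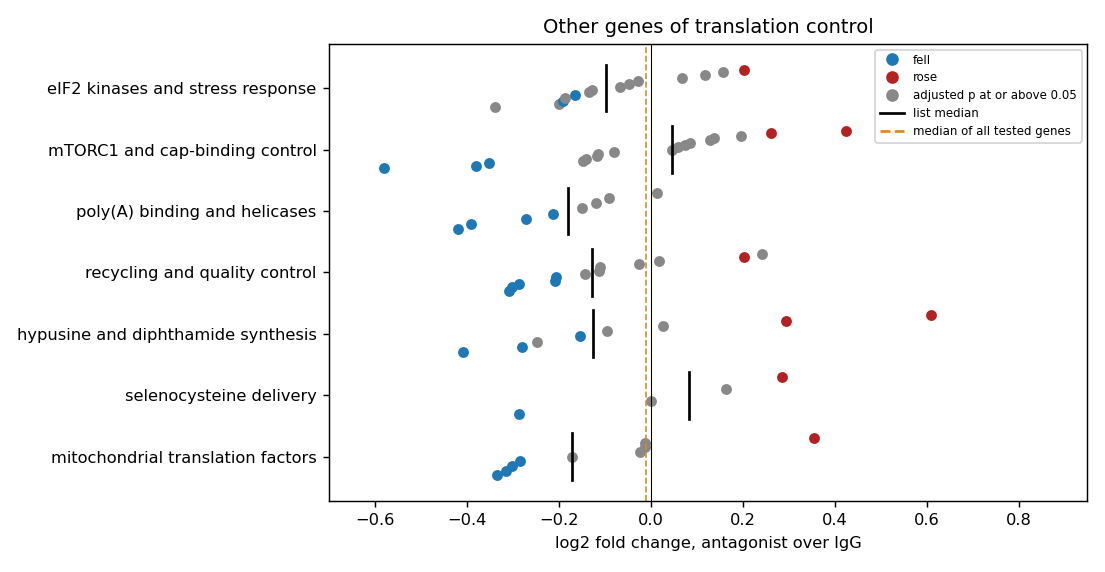
Log2 fold change (x axis, antagonist over IgG) of the 72 tested genes in 7 lists of translation control (y axis); blue points fell, red points rose, grey points did not pass the test, black bars are list medians and the dashed line is the median of all tested genes. Points of both colours appear in each list except that of poly(A) binding and helicases, where 4 genes fell and 0 rose.

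With the agonist, 8 translation factor genes were listed, and all 8 were lower than with IgG. The table holds selected genes: after scaling, the log2 fold changes nearest to zero were -0.25 and 0.12, and 44.2% of its 904 genes fell while 55.6% rose by the edgeR quasi-likelihood test. The 8 calls are therefore a description of the listed genes, and translation factor genes outside that list were not analysed here for the agonist. CPM values in that table are scaled to the counts of listed genes alone and cannot be set beside those of the antagonist table.

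EEF1AKMT1, the eEF1A methyltransferase, was at 13.4, 10.4 and 7.38 CPM in agonist libraries, against 25.1, 20.04 and 20.4 CPM in IgG libraries (log2 fold change -1.07, SE 0.26, adjusted p = 0.0022). EEF2 was at 11611, 11883 and 11775 CPM in agonist libraries, against 15608, 15482 and 15518 CPM in IgG libraries (log2 fold change -0.40, SE 0.042, adjusted p = 5.63e-05). Both were lower in all agonist libraries than in any of their IgG libraries, and EEF2 varied little within its groups. EIF3C was at 376, 413 and 372 CPM in agonist libraries, against 588, 496 and 558 CPM in IgG libraries (log2 fold change -0.50, SE 0.080, adjusted p = 0.000253), and its copy EIF3CL averaged 397 ± 13.1 CPM with the agonist and 539.8 ± 24.4 CPM with IgG (log2 fold change -0.44, SE 0.069, adjusted p = 0.000218). EIF3L, the other listed eIF3 subunit, was at 1825, 1758 and 1832 CPM in agonist libraries, against 2252, 2359 and 2198 CPM in IgG libraries (log2 fold change -0.33, SE 0.051, adjusted p = 0.000218). All 3 eIF3 genes were separated from IgG.

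EIF4B was at 2063, 2098 and 2166 CPM in agonist libraries, against 2663, 2575 and 2674 CPM in IgG libraries (log2 fold change -0.32, SE 0.049, adjusted p = 0.000218). EEF1G was at 2735, 2499 and 2565 CPM in agonist libraries, against 3231, 3242 and 3116 CPM in IgG libraries (log2 fold change -0.30, SE 0.052, adjusted p = 0.000445). GSPT1 was at 772, 818 and 818 CPM in agonist libraries, against 973, 1022 and 967 CPM in IgG libraries (log2 fold change -0.30, SE 0.057, adjusted p = 0.000635). Every agonist library lay below every IgG library for each of the 8 genes, as it did for 44.1% of the listed genes. Without agonist library 1, which stood apart, all 8 genes again passed the test as lower, which in a list of selected genes is a description only. Of the related genes 5 were listed, and all of them were lower: PABPC1 (-0.31), MTOR (-0.47), ASNS (-0.44), ZNF598, a ligase of collided ribosomes (-0.35), and DEPTOR, an mTOR inhibitor (-0.76).

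The effects of the antibodies were then set against each other over 902 genes found in both tables, each effect measured against its own IgG libraries. The antagonist effect minus the agonist effect was 0.95 (SE 0.29, adjusted p = 0.0108) for EEF1AKMT1 and 0.24 (SE 0.09, adjusted p = 0.0356) for EEF2, where 56.5% of the 902 genes passed this edgeR test of the difference. For both genes the agonist estimate was the lower one, and neither gene was called with the antagonist. The difference was 0.24 (SE 0.10, adjusted p = 0.0536) for EIF3C, 0.19 (SE 0.10, adjusted p = 0.111) for EIF3CL and 0.12 (SE 0.08, adjusted p = 0.204) for GSPT1. It was 0.11 (SE 0.07, adjusted p = 0.189) for EIF4B, -0.11 (SE 0.07, adjusted p = 0.205) for EEF1G and -0.01 (SE 0.07, adjusted p = 0.868) for EIF3L, so that these 6 genes missed the threshold. The zero point of the agonist effects is uncertain because the listed genes were selected: scaled by totals of the shared genes, 6 of the 8 differences passed the test. The call of EEF2 was lost without antagonist library 1 or 3, agonist library 1 or 3, or any 1 of the 3 IgG libraries of the agonist set, with adjusted p-values of 0.0533 to 0.079. Without IgG library 1 of the antagonist set the difference for EEF2 was 0.15.

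**Figure D5:**
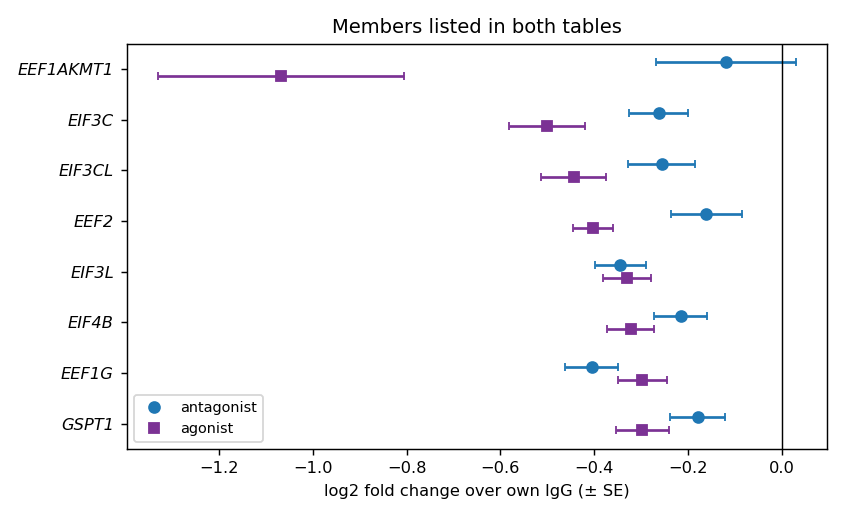
Log2 fold change over the matching IgG libraries (x axis, bars ± SE) of the 8 genes listed in both tables; blue circles are the antagonist and purple squares the agonist. All points lie to the left of zero, and the markers of EEF1AKMT1 and EEF2 are the pairs whose difference passed the test.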

How the data were processed

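The authors deposited 1 table of raw read counts per gene for each antibody and its IgG controls, as whole numbers without scaling. HISAT2, Cufflinks and build hg38 are named, per the submitters' processing notes; their versions, the program that counted, its annotation and whether it used strand were not given in the sources used here. RNA came from a Trizol and chloroform extraction and went into a kit named NEBNext Ultra DNA, per the labels' protocols.

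In the antagonist table, 570 of 28395 rows had no symbol, held 0.0678% to 0.105% of counts per library and were left out. Counts were tested on the whole table with edgeR 4.0.16 in R 4.3.3: filterByExpr, TMM scaling, robust quasi-likelihood test, and Benjamini-Hochberg adjustment over all genes tested at 0.05. Standard errors (SE) come from the fold change and the F statistic. CPM are TMM-scaled and were computed here. The antibodies were compared by a set-by-treatment interaction over 902 shared genes, with scaling within each set. Shares and ratios were compared by exact permutation tests (scipy 1.17.1). The script was tested on simulated data. Transcript windows, lengths and GC content come from GENCODE 29, and start sequences and gene positions from RefSeq (GRCh38.p14).

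Columns carry no replicate numbers, so no fit used a replicate block. Alternatives included the edgeR test with edgeR's relative log expression scaling, called DESeq2 size factors here, and the Wald test of DESeq2 1.42.0. Further alternatives were library totals, no filter, each library left out in turn, the EIF4EBP genes counted as members, and other sums and denominators for shares. Removal of trends in length and GC content was added after the data were seen. The genes described, the lists of related genes and the tests were chosen with earlier results of these data known. Values per library are given for the gene with the most reads, the largest fall and the largest rise in each role group; the genes EIF4E, EIF4G1, EIF5B, EIF1, EIF3M, EIF3A, EIF5AL1, EIF5A2, EEF1A1, EEF1G and PABPC1 were added after their values were seen, as were TRIB3, DDIT3, ASNS, MTOR, EIF4EBP1, LARP1 and GCN1 among related genes. Intervals and floors of counts cover counting error only. The values of 1 marker gene of another cell type are not reported here.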

Additional observations from a re-analysis of the deposited data

Results flagged for a closer look

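EEF1AKMT1 was flagged because the antagonist and agonist effects on it differed by a test of the difference itself. The antagonist effect minus the agonist effect was 0.95 on the log2 scale (SE 0.29, edgeR quasi-likelihood test over 902 shared genes, adjusted p = 0.0108). Of those genes 56.5% passed this test, so passing it does not set a gene apart. The genes of the agonist table were selected, and the zero point of the agonist effects is uncertain. EEF1AKMT1 averaged 6.0 ± 0.262 CPM with the antagonist and 6.5 ± 1.04 CPM with IgG in the antagonist set. In the agonist set it had 46, 33 and 25 counts in agonist libraries, against 83, 56 and 65 counts in IgG libraries. The difference passed the test without any 1 of the 12 libraries (0.75 to 1.18), which does not undo the selection of the listed genes.

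EEF2 was flagged for the same reason, with a difference of 0.24 (SE 0.093, adjusted p = 0.0356). The same limit holds for it, since 56.5% of the shared genes passed this edgeR test. The call of EEF2 was lost without any 1 of several libraries, with adjusted p-values of 0.0533 to 0.079. With 1 library left out its difference went down to 0.15. Its agonist libraries and their IgG libraries were separated, whereas in the antagonist set 1 IgG library lay among the antagonist libraries.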

How the results depend on the processing

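The number of translation factor genes that fell with the antagonist, 37, was 36 with DESeq2 size factors, 35 with the DESeq2 test, 29 with library totals, 40 with no filter, 36 with trends in length and GC content removed (added after the data were seen), 39 with the EIF4EBP genes counted as members and 29 to 37 with 1 library left out. Of the 37 genes, 27 passed as lower under each of the 11 other fits; EIF1B lost its call in 9, GSPT1 in 8, EIF4A2 in 6, EIF3CL in 5, EIF3G and EIF4B in 4, EIF2S3, EIF4G2 and EIF2B3 in 2 and EIF2A in 1. The number that rose, 1, was 2 with DESeq2 size factors, 4 with library totals, 2 with the trends removed and 0 to 2 with 1 library left out. Over all genes, 2831 fell and 2147 rose; 1597 fell and 3022 rose with library totals, and with 1 library left out 1769 to 2601 fell and 1374 to 2474 rose. All 8 listed genes were lower with the agonist under each alternative run. Nearly all genes of that table were called as lower or higher (44.2% and 55.6%), so this outcome is no separate check.

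With the trends removed, EEF1AKMT1 (0.15), EIF1 (0.042), EIF1B (0.0218), EIF4A2 (0.0169), GSPT1 (0.0261) and EIF4G1 (-0.15) changed sign in the antagonist comparison. Among related genes GCN1 (-0.11) did, and with library totals EIF3J-DT did (0.00855). These signs were compared for 50 of the 62 tested genes. GSPT2, outside those 50, also changed sign with the trends removed (0.0571). With 1 library left out, log2 fold changes ran from -0.22 to 0.0364 for EEF1AKMT1, -0.13 to 0.0381 for EIF1 and -0.11 to 0.0194 for EIF3J-DT. Of the differences between antibodies, 2 passed in the reported fit, 6 with totals of the shared genes and 1 to 3 with 1 library left out. With those totals the difference was 0.0113 for EEF1G and 0.10 for EIF3L, and with 1 library left out it ran from -0.0429 to 0.00832 for EIF3L. The difference in the share of counts, -0.267 percentage points, was -0.191 without EEF1A1, -0.370 without mitochondrial and ribosomal protein genes in the total and -0.296 to -0.251 with 1 library left out. The log2 ratio of GSPT2 to GSPT1 ran from -0.0389 to 0.29 with 1 library left out. The causes of these changes were not tested. No paired analysis was possible because the columns carry no replicate numbers. Genes of few counts such as GSPT2 and EEF1E1 have wide errors.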
